A study of Mus musculus with 6 samples.

Results

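The list describes 36 mouse genes that take up short-chain acids, burn fatty acids in mitochondria and peroxisomes, handle ketone bodies, or encode the PPAR receptors and some of their responsive genes. The members were chosen by gene name, and all 36 were found among the 55849 genes of the deposited tables and had enough counts to be tested, as did 16107 genes in all. Bulk RNA of the descending colon was sequenced in 3 libraries of Muc2-/- mice and 3 libraries of wild-type C57BL/6 mice, all aged 12 weeks and untreated. Muc2 encodes the gel-forming mucin of colonic mucus, and mice without it develop inflammation of the colon. The labels do not describe the mutated allele, and the sample titles speak of crypts where the protocols speak of colon tissue. They give no litter, sex or number of animals behind a library, so the p-values given here reflect only library-to-library spread, which may be technical.

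Colonocytes draw much of their energy from butyrate, which bacteria make from fibre in the gut lumen. Monocarboxylate carriers bring butyrate into the cell, and the mitochondrial beta-oxidation spiral shortens acyl-CoA by a dehydrogenase, a hydratase, a second dehydrogenase and a thiolase in turn. Long-chain fatty acids must first be joined to coenzyme A and carried across the inner membrane as carnitine esters, while peroxisomes take very long or unusual chains. PPAR nuclear receptors sense fatty acids and switch on many of these genes.

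Levels are given as the deposited FPKM, which is per gene length, and differences as the log2 fold change of Muc2-/- over wild-type from the counts with its standard error (SE). In a bulk sample, fewer cells of a type and less RNA per cell cannot be told apart. Total counts ran from 16395432 to 20336459 per library. Muc2 itself stood at 54.0, 74.7 and 67.9 FPKM in Muc2-/- 1, 2 and 3, against 173, 493 and 192 FPKM in wild-type 1, 2 and 3. The groups of Muc2 values did not overlap, and its log2 fold change was -2.15 (edgeR adjusted p = 0.103, DESeq2 adjusted p = 3.26e-05). Without a description of the allele, the counts over the whole gene do not check the deletion. All 17 pan-epithelial markers were tested, and their mean log2 CPM ran from 10.05 to 10.63 in Muc2-/- and from 9.10 to 9.70 in wild-type. All 16 smooth muscle markers were tested too, at 6.398 to 7.29 in Muc2-/- and 7.63 to 9.43 in wild-type. Neither list overlapped between the groups, whereas 16 markers of absorptive colonocytes did, at 8.55 to 8.88 in Muc2-/- and 8.62 to 9.31 in wild-type. Of 12 immune markers 11 were tested, at 3.07 to 5.16 in Muc2-/- and 1.61 to 3.15 in wild-type. The immune list thus overlapped between the groups as well, though only because Muc2-/- 2 lay under wild-type 1. The 9 goblet cell markers, which include Muc2, overlapped narrowly, at 9.886 to 10.34 in Muc2-/- and 8.03 to 9.890 in wild-type. The 8 enteric neuron and glia markers did not overlap, at 1.36 to 1.86 in Muc2-/- and 2.49 to 4.42 in wild-type. Nor did striated muscle markers, 4 of 10 tested, at 0.59 to 1.13 in Muc2-/- and 1.34 to 2.16 in wild-type. The pan-epithelial, smooth muscle, enteric neuron and glia, and striated muscle lists move with genotype beside every result below. The part of any of these lists in the results was not tested.

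**Figure D1:**
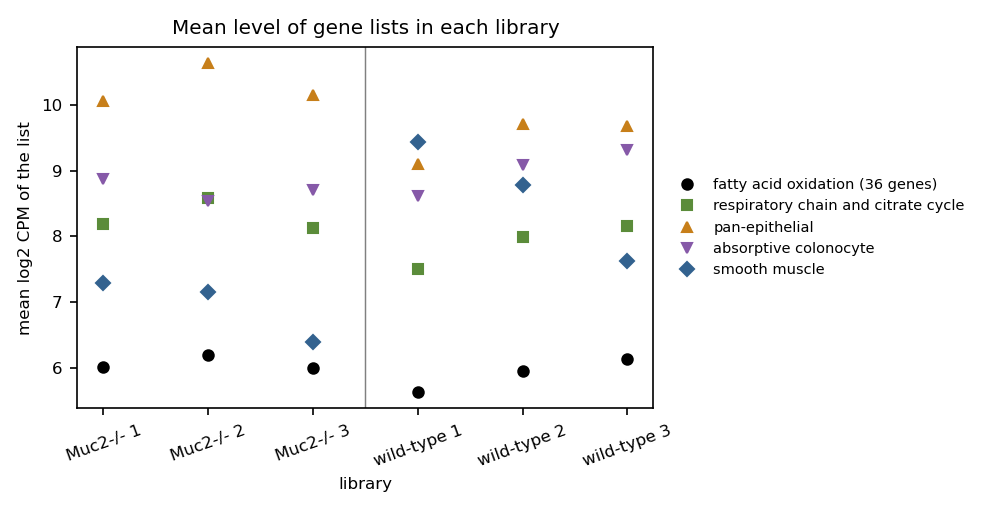
Mean log2 CPM (vertical axis) of 5 gene lists in each of the 6 libraries (horizontal axis, Muc2-/- left of wild-type), 1 point per list and library. The 36 fatty acid oxidation genes lie between 6.00 and 6.19 in Muc2-/- and between 5.64 and 6.13 in wild-type, while the pan-epithelial and smooth muscle lists do not overlap between the groups.

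Acadl, Acsl5 and Angptl4 were higher in every Muc2-/- library than in any wild-type library, Acadsb and Acot1 were lower, and no member passed the test over all genes. At an adjusted p under 0.05 in edgeR's quasi-likelihood test, 0 members were higher and 0 lower, where 0.106% of all genes tested were called higher, 0.0186% lower and 0.124% either way. At an unadjusted p under 0.05, 2 members were higher (Acadl and Acsl5) and 2 lower (Acadsb and Acot1), against 8.23% and 12.7% of all genes. The groups did not overlap in 3 members with Muc2-/- higher and in 2 with Muc2-/- lower, against 13.3% and 15.2% of all genes. These shares of the 36 are at or under the background. DESeq2 called 2 members higher (Acadl and Acsl5) and 0 lower, where it called 3.24% and 6.61% of its 18968 genes. The median log2 fold change was 0.23 over the members and -0.01 over all genes, with 24 members positive and 12 negative. That split depended on scaling, which also moved the median over all genes. In the reported fit 24 members lay above that median. Without composition factors 20 members were positive, and 24 lay above the all-gene median of -0.20. Scaled to the respiratory chain and citrate cycle list, 13 were positive and 26 above the all-gene median of -0.44. Scaled to the pan-epithelial list, 2 were positive and 26 above the all-gene median of -0.80. Without wild-type 1 and Muc2-/- 2, 16 were positive and 16 above the all-gene median. With a smooth muscle covariate these counts were 16 and 14.

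**Figure D2:**
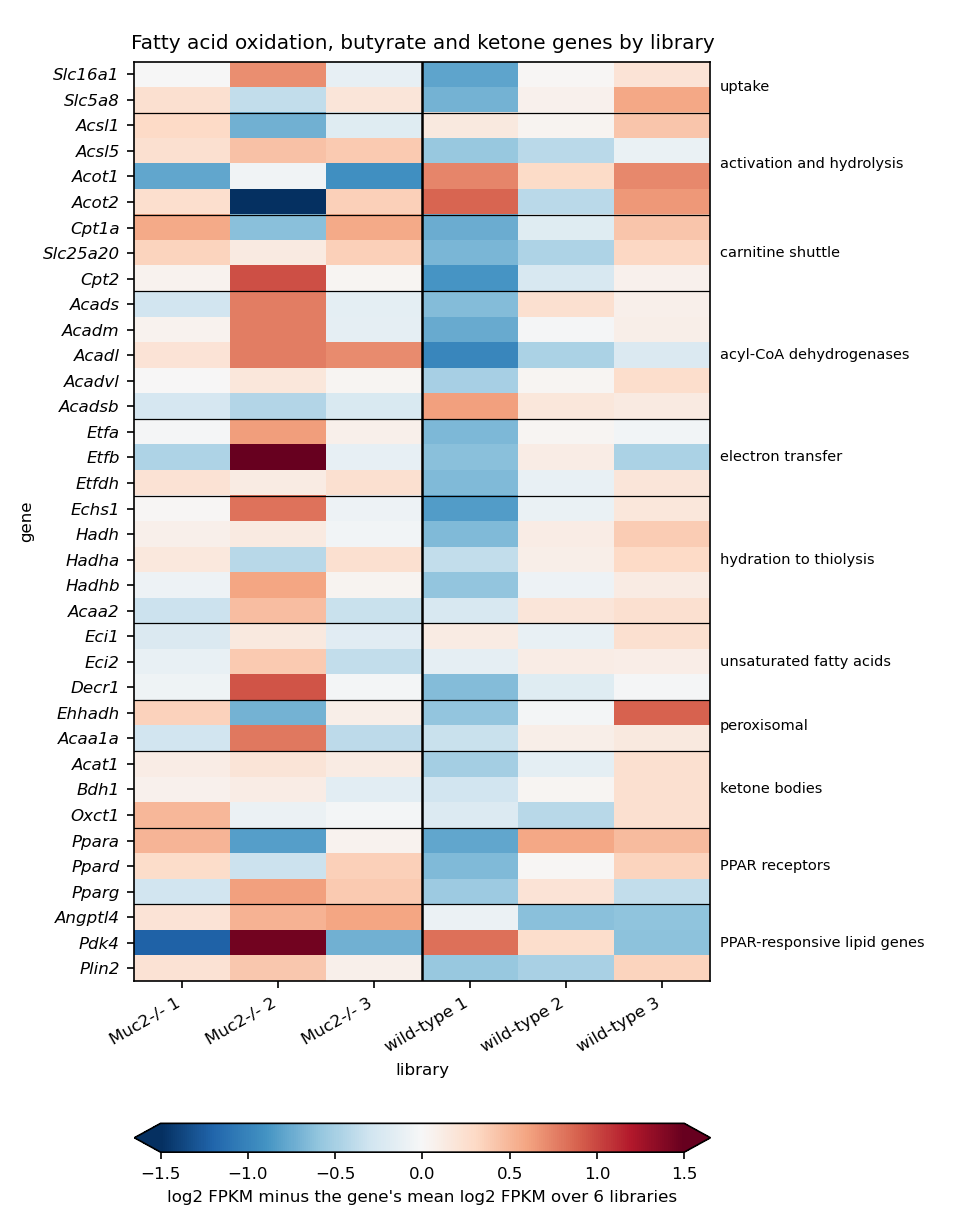
Log2 FPKM of each of the 36 genes (rows, grouped by step) minus the gene's mean over all 6 libraries, in each library (columns, Muc2-/- left of wild-type). Red is above and blue below the gene's mean, and the colours stop at the ends of the scale. Wild-type 1 is the lowest wild-type library in 28 of the 36 genes, and Muc2-/- 2 is at an end of its group in 35.

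In wild-type most members shared an order of the libraries, while Muc2-/- 2 was high in some members and low in others. In CPM, wild-type 1 was the lowest wild-type library in 28 of 36 members (77.8%), against 34.5% of all genes tested. In 22 members (61.1%), against 22.9% of all genes, wild-type 1 was the lowest, wild-type 2 in the middle and wild-type 3 the highest. The smooth muscle and immune lists fell from wild-type 1 through wild-type 2 to wild-type 3. The absorptive colonocyte list and the respiratory chain and citrate cycle list rose in that order. The pan-epithelial list did neither, and the part of these lists in the order of the members was not tested. Muc2-/- 2 was at either end of its group in 35 members (97.2%), against 85.3% of all genes. It was the highest of Muc2-/- in 23 members and the lowest in 12, and of all 6 libraries it was the highest in 17 and the lowest in 6. Muc2-/- 2 also had the strongest relation of level to gene length, a rank correlation of -0.245 across genes with the deviation from the mean library, where the other 5 libraries lay between -0.0126 and 0.154.

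Of the acyl-CoA dehydrogenases, which start each turn of the spiral, Acadl had the largest positive fold change among the 36 genes. Acadl encodes the long-chain enzyme and lies on chromosome 1 from 66869998 to 66902436 on the minus strand in the coordinates of the count table. Its level was 120, 177 and 169 FPKM in Muc2-/- 1, 2 and 3, against 52.6, 74.9 and 89.5 FPKM in wild-type 1, 2 and 3. Every Muc2-/- library stood above every wild-type library. The means were 155 ± 30.9 FPKM and 72.3 ± 18.6 FPKM (SD, n = 3 each), and the log2 fold change was 1.08 (SE 0.26, unadjusted p = 0.00298, edgeR adjusted p = 0.103). DESeq2 gave an adjusted p of 0.00587. Without wild-type 3 edgeR gave 0.0462, in a fit that called 7.3% of all genes. With any other single library left out, edgeR gave an adjusted p from 0.155 to 0.289. Acadl kept a positive fold change in all 24 alternatives, from 0.32 when scaled to the pan-epithelial list to 1.25 without wild-type 3, with adjusted p from 0.00587 to 0.961. By mean FPKM its rank among the 36 genes was 1 in Muc2-/- and 4 in wild-type.

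Acadsb, the dehydrogenase for short branched chains from isoleucine, was the dehydrogenase with a negative fold change. It stood at 3.34, 2.93 and 3.401 FPKM in Muc2-/- 1, 2 and 3, against 6.11, 4.47 and 4.36 FPKM in wild-type 1, 2 and 3. The groups did not overlap, and wild-type 1 was the highest library, unlike in most members. The log2 fold change of Acadsb, on chromosome 7 from 131012330 to 131050673, was -0.65 (SE 0.21, unadjusted p = 0.0163, edgeR adjusted p = 0.147). It was negative in all 24 alternatives, from -1.47 to -0.30.

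The other dehydrogenases overlapped between the groups. Acads, the short-chain enzyme that acts on butyryl-CoA, had 68.3, 142 and 75.0 FPKM in Muc2-/- 1, 2 and 3, against 53.3, 98.7 and 87.8 FPKM in wild-type 1, 2 and 3. Muc2-/- 2 was the highest of the 6, and the log2 fold change of 0.23 was smaller than its SE of 0.34. Acadm, the medium-chain enzyme, averaged 45.1 ± 15.7 FPKM in Muc2-/- and 32.8 ± 9.38 FPKM in wild-type (log2 fold change 0.44, SE 0.31, edgeR adjusted p = 0.444). Acadvl, the very-long-chain enzyme of the inner membrane, averaged 25.4 ± 1.55 FPKM and 23.6 ± 6.04 FPKM (0.09, SE 0.21, edgeR adjusted p = 0.846). Each of these 3 had a fold change of the other sign under at least 1 scaling.

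Because Acadl and Acadvl are measured in the same library, their ratio does not depend on how libraries are scaled. The Acadl to Acadvl ratio of FPKM was 4.92, 6.50 and 6.87 in Muc2-/- 1, 2 and 3, against 3.08, 3.03 and 3.09 in wild-type 1, 2 and 3. The ratios did not overlap, and their means were 6.10 ± 1.04 in Muc2-/- and 3.07 ± 0.0273 in wild-type (SD, n = 3 each). Against Acadm the ratio was 3.12, 2.80 and 5.01 in Muc2-/-, and 2.38, 2.05 and 2.26 in wild-type. Against Acads it was 1.76, 1.25 and 2.26 in Muc2-/-, and 0.986, 0.759 and 1.02 in wild-type. These pairs were chosen after the values were seen and were given no test. Of the 50-base words in Acadl transcripts 0% occurred in transcripts of another gene, whereas Acadvl shared 26.9% with Dvl2, which overlaps it.

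**Figure D3:**
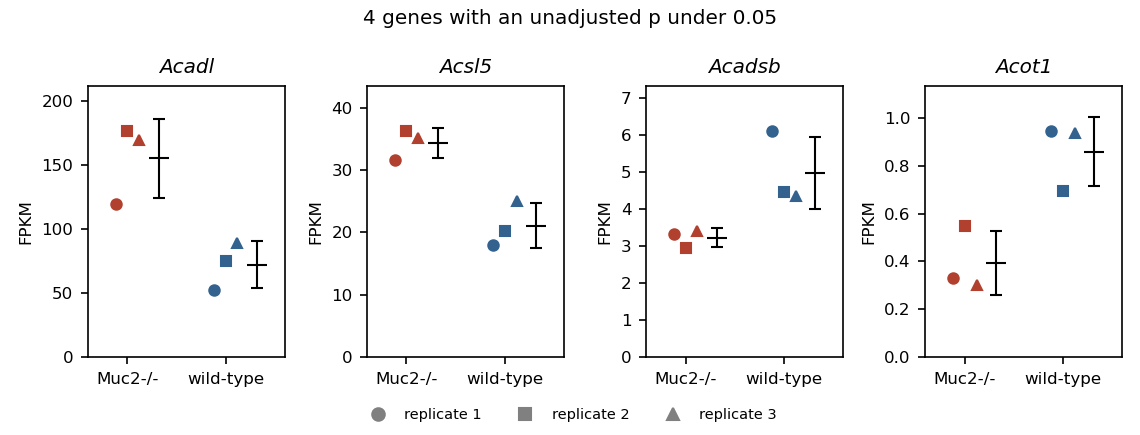
FPKM (vertical axes, from 0) of Acadl, Acsl5, Acadsb and Acot1, 1 point per library with Muc2-/- left of wild-type, and the mean with SD (n = 3 each) beside the points. In Acadl and Acsl5 the Muc2-/- libraries lie above the wild-type libraries, and in Acadsb and Acot1 below them.

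Acsl5, an acyl-CoA synthetase of the gut epithelium that activates long-chain fatty acids, was the other member called by DESeq2. It stood at 31.6, 36.2 and 35.1 FPKM in Muc2-/- 1, 2 and 3, against 17.99, 20.2 and 25.0 FPKM in wild-type 1, 2 and 3. All Muc2-/- libraries were above all wild-type libraries. The log2 fold change of Acsl5, on chromosome 19 from 55240370 to 55286152, was 0.69 (SE 0.19, unadjusted p = 0.0063, edgeR adjusted p = 0.110; DESeq2 adjusted p = 0.0425). Scaled to the pan-epithelial list it was -0.09, and it was positive in the other 23 of 24 alternatives. Its paralog Acsl1 was far lower, at 2.44 ± 0.839 FPKM in Muc2-/- and 3.13 ± 0.432 FPKM in wild-type (log2 fold change -0.37, SE 0.28). The Acsl5 to Acsl1 ratio was 9.57, 22.2 and 14.7 in Muc2-/- 1, 2 and 3, against 6.02, 7.26 and 6.93 in wild-type 1, 2 and 3, with no overlap. This pair too was chosen with the values known and was given no test. The listed length is 4864 bases for Acsl5 and 10483 for Acsl1.

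Acot1 and Acot2, cytosolic and mitochondrial thioesterases that release free fatty acids from acyl-CoA, were barely expressed. Acot1 stood at 0.332, 0.550 and 0.3004 FPKM in Muc2-/- 1, 2 and 3, against 0.946, 0.693 and 0.940 FPKM in wild-type 1, 2 and 3. The groups did not overlap, on 22, 32 and 19 counts in Muc2-/- and 69, 53 and 76 counts in wild-type. Acot1 lies on chromosome 12 from 84056264 to 84065145. Its log2 fold change was -1.15 (SE 0.43, unadjusted p = 0.0287, edgeR adjusted p = 0.187), and it was negative in all 22 alternatives that tested it. Acot2 had 1.21, 0.307 and 1.298 FPKM in Muc2-/- 1, 2 and 3, against 1.86, 0.771 and 1.59 FPKM in wild-type 1, 2 and 3 (-0.59, SE 0.62). Acot1 and Acot2 are near copies on chromosome 12, with 24.5% of the 50-base words of Acot2 also in Acot1, so their single values are uncertain.

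The start regions of these 4 genes are shown to let a reader compare the members with the clearest differences. The windows run from 250 bases before to 50 bases after the annotated start and come from RefSeq (build GRCm38.p6, another assembly than the coordinates of the count table). Capitals mark GGGCGG or CCAAT on either strand. Acadl (minus strand, chr1:66863260-66863559) and Acsl5 (plus strand, chr19:55253119-55253418) are followed by Acadsb (plus strand, chr7:131410351-131410650) and Acot1 (plus strand, chr12:84009252-84009551).
Acadl: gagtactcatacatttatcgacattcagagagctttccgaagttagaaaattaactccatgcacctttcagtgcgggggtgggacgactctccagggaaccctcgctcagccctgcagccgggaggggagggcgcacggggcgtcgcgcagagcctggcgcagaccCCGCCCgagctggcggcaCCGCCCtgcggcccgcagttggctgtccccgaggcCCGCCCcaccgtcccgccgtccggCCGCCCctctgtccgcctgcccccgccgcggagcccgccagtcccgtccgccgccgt
Acsl5: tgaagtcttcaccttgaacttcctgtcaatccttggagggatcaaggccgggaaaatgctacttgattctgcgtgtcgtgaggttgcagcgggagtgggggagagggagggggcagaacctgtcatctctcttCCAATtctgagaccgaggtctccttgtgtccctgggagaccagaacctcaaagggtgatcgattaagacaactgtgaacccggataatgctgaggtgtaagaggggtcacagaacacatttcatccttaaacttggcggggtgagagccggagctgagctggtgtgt
Acadsb: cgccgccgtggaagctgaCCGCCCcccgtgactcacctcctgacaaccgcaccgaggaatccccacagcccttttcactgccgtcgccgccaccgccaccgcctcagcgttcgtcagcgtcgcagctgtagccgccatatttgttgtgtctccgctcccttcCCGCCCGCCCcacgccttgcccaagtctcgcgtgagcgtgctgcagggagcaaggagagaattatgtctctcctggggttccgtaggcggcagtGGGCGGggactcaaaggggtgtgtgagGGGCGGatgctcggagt
Acot1: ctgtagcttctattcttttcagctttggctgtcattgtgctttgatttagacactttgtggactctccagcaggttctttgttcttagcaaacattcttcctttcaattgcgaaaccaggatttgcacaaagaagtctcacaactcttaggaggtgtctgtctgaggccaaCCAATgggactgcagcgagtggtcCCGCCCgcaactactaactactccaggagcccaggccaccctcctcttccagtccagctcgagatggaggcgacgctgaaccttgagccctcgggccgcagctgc
The GC box letters GGGCGG occurred 4 times in the Acadl window, 0 times in Acsl5, 5 times in Acadsb and once in Acot1, and GC content was 70.3%, 53%, 66% and 52% in the same order. So the pair with positive fold changes did not share these letters. A window was found for 32 of the 36 members, with 36 windows in all since some genes have several starts. GGGCGG stood in 72.2% of the member windows and in 35.7% of all 32851 windows, and CCAAT in 47.2% and 37.4%. The nuclear receptor motif AGGTCA stood in 19.4% and 16.3%, and a direct repeat of AGGTCA with 1 base of any kind between the copies, the type PPAR binds, in 0% and 0.0396%, which says only that these letters are not in these windows. Both strands were searched, overlapping matches were kept, and AGGTCA is part of the direct repeat.

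Uptake genes did not separate the groups. Slc16a1, the monocarboxylate carrier MCT1, had 67.8, 111 and 62.7 FPKM in Muc2-/- 1, 2 and 3, against 39.4, 69.3 and 78.9 FPKM in wild-type 1, 2 and 3 (log2 fold change 0.35, SE 0.32, edgeR adjusted p = 0.578). Slc5a8, the sodium-coupled carrier SMCT1, had 49.0, 32.3 and 47.4 FPKM in Muc2-/- 1, 2 and 3, against 25.6, 43.5 and 62.5 FPKM in wild-type 1, 2 and 3 (-0.04, SE 0.33, edgeR adjusted p = 0.959). In both genes the spread within wild-type was larger than the difference of the means. Bsg, the chaperone that brings MCT1 to the membrane, had 575, 873 and 564 FPKM in Muc2-/- 1, 2 and 3, against 385, 542 and 471 FPKM in wild-type 1, 2 and 3. The Bsg groups did not overlap, but the log2 fold change of 0.50 had an edgeR adjusted p of 0.347.

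Other carriers and receptors of short-chain acids, a list of 13 genes with 12 tested, held 0 called members in edgeR. At an unadjusted p under 0.05, 0 were higher and 5 lower, against 8.23% and 12.7% of all genes. DESeq2 called 0 higher and 3 lower, against 3.24% and 6.61% of all genes (median 0.05, against -0.01 over all genes). Slc26a3, the chloride-bicarbonate exchanger of surface colonocytes, had 157, 70.8 and 115 FPKM in Muc2-/- 1, 2 and 3, against 158, 234 and 342 FPKM in wild-type 1, 2 and 3. Its groups did not overlap, though Muc2-/- 1 and wild-type 1 nearly met (log2 fold change -1.11, DESeq2 adjusted p = 0.0431, edgeR adjusted p = 0.172). Slc16a11 had 0.673 ± 0.130 FPKM in Muc2-/- and 2.04 ± 0.475 FPKM in wild-type (DESeq2 adjusted p = 0.00515, edgeR adjusted p = 0.103). Slc16a13 and Ffar3, a receptor for short-chain acids, were the next by unadjusted p, at 1.72 ± 0.482 and 0.446 ± 0.385 FPKM in Muc2-/- and 3.14 ± 0.498 and 1.67 ± 0.915 FPKM in wild-type.

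The carnitine shuttle had 3 positive fold changes, none past the threshold. Cpt1a, the regulated entry step on the outer membrane, had 27.5, 12.0 and 27.5 FPKM in Muc2-/- 1, 2 and 3, against 11.04, 16.3 and 24.7 FPKM in wild-type 1, 2 and 3 (0.36, SE 0.39, edgeR adjusted p = 0.642). Slc25a20, the carnitine-acylcarnitine translocase, had 44.3, 38.6 and 44.9 FPKM in Muc2-/-, against 21.8, 25.4 and 43.5 FPKM in wild-type (0.48, SE 0.27, edgeR adjusted p = 0.349). Cpt2, which frees the acyl group inside the mitochondrion, had 39.5, 74.6 and 38.9 FPKM in Muc2-/-, against 20.7, 32.2 and 39.8 FPKM in wild-type (0.70, SE 0.32, edgeR adjusted p = 0.264). Muc2-/- 2 was thus low in Cpt1a and high in Cpt2, and wild-type 3 reached the Muc2-/- levels in Slc25a20. All 3 fold changes were negative when scaled to the pan-epithelial list.

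Electron transfer flavoprotein passes electrons from the dehydrogenases to the respiratory chain. Etfa, its alpha subunit, had 86.5, 135 and 92.3 FPKM in Muc2-/- 1, 2 and 3, against 54.7, 89.4 and 85.5 FPKM in wild-type 1, 2 and 3. Etfb, the beta subunit, had 21.2, 86.8 and 26.7 FPKM in Muc2-/-, against 18.9, 31.5 and 20.9 FPKM in wild-type, so its mean difference rested on Muc2-/- 2. The log2 fold change of Etfb was 0.89 (SE 0.51, edgeR adjusted p = 0.365), and -0.13 without wild-type 1 and Muc2-/- 2. Etfdh, which hands the electrons to ubiquinone, averaged 9.62 ± 0.435 FPKM in Muc2-/- and 7.57 ± 2.13 FPKM in wild-type (0.33, SE 0.22). Etfb shares 43.8% of its 50-base words with the overlapping gene Gm45233, so its count is uncertain.

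From hydration to thiolysis, all 5 members overlapped between the groups. Echs1, the short-chain hydratase, averaged 22.4 ± 8.12 FPKM in Muc2-/- and 15.8 ± 5.20 FPKM in wild-type (log2 fold change 0.49, SE 0.32). Hadh, the short-chain hydroxyacyl-CoA dehydrogenase, had 53.5, 55.5 and 49.3 FPKM in Muc2-/- 1, 2 and 3, against 31.96, 54.8 and 66.1 FPKM in wild-type 1, 2 and 3 (0.04, SE 0.27). Acaa2, the mitochondrial thiolase and the member with the highest mean level in this step, had 53.3, 91.8 and 52.8 FPKM in Muc2-/-, against 56.6, 75.6 and 78.8 FPKM in wild-type (-0.11, SE 0.26). The Hadh range of Muc2-/- lay inside that of wild-type, and in Acaa2 the Muc2-/- libraries 1 and 3 were below all of wild-type. Hadha and Hadhb, the subunits of the trifunctional protein for long chains, averaged 24.8 ± 5.70 and 24.7 ± 6.49 FPKM in Muc2-/- and 24.9 ± 5.67 and 19.1 ± 4.56 FPKM in wild-type (-0.02 and 0.35, SE 0.26 and 0.26). Adjusted p in edgeR was between 0.424 and 0.967 for these 5 genes.

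**Figure D4:**
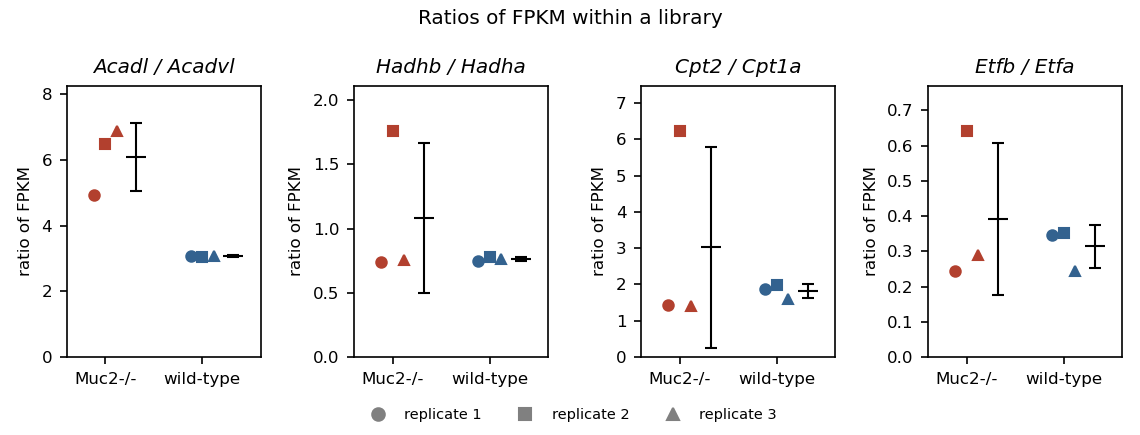
Ratios of FPKM within a library (vertical axes, from 0) for Acadl to Acadvl, Hadhb to Hadha, Cpt2 to Cpt1a and Etfb to Etfa, 1 point per library with Muc2-/- left of wild-type, and the mean with SD (n = 3 each) beside the points. The Acadl to Acadvl ratio is above wild-type in all 3 Muc2-/- libraries, while the other 3 ratios are far above the rest in Muc2-/- 2 alone.

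Partner genes showed how far Muc2-/- 2 stood apart. The Hadhb to Hadha ratio was 0.742, 1.76 and 0.754 in Muc2-/- 1, 2 and 3, against 0.747, 0.775 and 0.766 in wild-type 1, 2 and 3. So 5 libraries lay within a narrow band and Muc2-/- 2 far above it. The same library was the highest for Cpt2 to Cpt1a, at 1.44, 6.22 and 1.41 in Muc2-/-, against 1.87, 1.97 and 1.61 in wild-type, and for Etfb to Etfa, at 0.245, 0.641 and 0.290 in Muc2-/-, against 0.346, 0.352 and 0.245 in wild-type. In these 3 pairs the gene with the longer listed length was the lower one relative to its partner in Muc2-/- 2. Hadha has 8730 bases against 6595 for Hadhb, Cpt1a 7642 against 2391 for Cpt2, and Etfa 1835 against 1164 for Etfb. The Acsl5 to Acsl1 and Slc16a1 to Slc5a8 ratios, also with the shorter gene on top, were highest in Muc2-/- 2 too. Other pairs went the other way. Acaa1a, with 4414 bases, is longer than Ehhadh, with 2981, and the Acaa1a to Ehhadh ratio was 2.64, 11.6 and 2.94 in Muc2-/- 1, 2 and 3, against 4.93, 4.45 and 2.46 in wild-type 1, 2 and 3. The ratios of Acadl to Acadm, Acadl to Acads, Oxct1 to Bdh1 and Oxct1 to Acat1, each with the shorter gene on top, were the lowest of Muc2-/- in Muc2-/- 2. Over the 36 members, the rank correlation of gene length with the gap between Muc2-/- 2 and the mean of Muc2-/- 1 and 3 was -0.352, and over all genes it was -0.214, both across genes of the same libraries. The length trend of each library was then removed, a choice made after seeing the data. With it removed, the median was 0.26 over the members and 0.04 over all genes. In that fit edgeR called 0 members, where it called 0.118% of all genes. At an unadjusted p under 0.05, 2 members were higher and 2 lower, where 21.8% of all genes passed either way. The part of gene length in the results was not tested further.

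Hadha and Hadhb start on opposite strands of chromosome 5, and their start windows are shown because the windows overlap. The Hadhb window (plus strand, chr5:30155003-30155302, RefSeq build GRCm38.p6) shares the 228 bases in capitals with the Hadha window, and the annotated starts lie 273 bases apart.
Hadhb: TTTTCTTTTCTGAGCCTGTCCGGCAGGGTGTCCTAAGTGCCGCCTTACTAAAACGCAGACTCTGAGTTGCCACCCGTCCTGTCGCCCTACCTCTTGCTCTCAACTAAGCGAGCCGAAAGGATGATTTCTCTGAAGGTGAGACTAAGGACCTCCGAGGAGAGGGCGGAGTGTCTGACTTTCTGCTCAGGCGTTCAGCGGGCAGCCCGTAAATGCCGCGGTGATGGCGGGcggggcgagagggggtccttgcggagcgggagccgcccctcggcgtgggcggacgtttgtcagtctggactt
The start regions of this pair are thus largely the same stretch read on opposite strands, and Hadhb shares 18.1% of its 50-base words with the pseudogene Gm13910.

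Enzymes for unsaturated chains bring double bonds into a form the spiral can use. Decr1, the dienoyl-CoA reductase, had 16.7, 33.4 and 17.0 FPKM in Muc2-/- 1, 2 and 3, against 11.1, 15.4 and 17.2 FPKM in wild-type 1, 2 and 3 (log2 fold change 0.60, SE 0.30, edgeR adjusted p = 0.302). Eci1, a mitochondrial enoyl-CoA isomerase and the most abundant in wild-type of these 3, had 17.5, 22.4 and 18.1 FPKM in Muc2-/-, against 22.1, 18.8 and 24.1 FPKM in wild-type (-0.18, SE 0.18). Eci2, an isomerase of mitochondria and peroxisomes, averaged 5.94 ± 1.65 FPKM in Muc2-/- and 6.03 ± 0.563 FPKM in wild-type (-0.04, SE 0.23). In each of the 3 the groups overlapped, and Muc2-/- 2 was the highest of its group.

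The peroxisomal members went opposite ways within Muc2-/-. Ehhadh, the bifunctional enzyme of peroxisomes, had 11.2, 5.40 and 9.37 FPKM in Muc2-/- 1, 2 and 3, against 5.82, 8.62 and 16.2 FPKM in wild-type 1, 2 and 3 (log2 fold change -0.25, SE 0.41, edgeR adjusted p = 0.770). Acaa1a, the peroxisomal thiolase, had 29.5, 62.6 and 27.6 FPKM in Muc2-/-, against 28.7, 38.3 and 39.9 FPKM in wild-type (0.14, SE 0.33, edgeR adjusted p = 0.849). Muc2-/- 2 was the lowest library for Ehhadh and the highest for Acaa1a, and 12.4% of the 50-base words of Acaa1a are also in Acaa1b. Of 27 other genes listed under peroxisomal beta-oxidation 26 were tested, and edgeR and DESeq2 each called 0. At an unadjusted p under 0.05, 1 of them was higher and 1 lower, against 8.23% and 12.7% of all genes (median 0.16). Abcd4 had the smallest p at a level of 1 FPKM or more, although it is an ABC transporter of cobalamin. It stood at 2.25 ± 0.452 FPKM in Muc2-/- and 1.39 ± 0.290 FPKM in wild-type. Abcd3, Pex7 and Cat, the next by p, had log2 fold changes of 0.57, 0.58 and -0.44, with edgeR adjusted p from 0.269 to 0.330. Phyh, which oxidizes phytanic acid, had the highest mean, at 83.2 ± 17.97 FPKM in Muc2-/- and 67.2 ± 15.15 FPKM in wild-type.

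Genes of ketone body metabolism had fold changes close to or under their SE. Acat1, the mitochondrial acetoacetyl-CoA thiolase, had 46.0, 48.8 and 46.6 FPKM in Muc2-/- 1, 2 and 3, against 30.1, 38.5 and 50.5 FPKM in wild-type 1, 2 and 3 (log2 fold change 0.23, SE 0.22). Bdh1, which interconverts acetoacetate and beta-hydroxybutyrate, had 44.8, 46.2 and 38.5 FPKM in Muc2-/-, against 35.0, 43.9 and 50.5 FPKM in wild-type (-0.02, SE 0.20). Oxct1, which activates acetoacetate for use as fuel, had 109, 73.0 and 76.1 FPKM in Muc2-/-, against 67.4, 58.5 and 92.1 FPKM in wild-type (0.23, SE 0.26). All 3 overlapped between the groups, with edgeR adjusted p of 0.576, 0.968 and 0.649.

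Of 9 other ketogenesis genes 7 were tested and 0 had an unadjusted p under 0.05, against 21% of all genes (median -0.16). Acat2, the cytosolic acetoacetyl-CoA thiolase, and Aacs, which activates acetoacetate in the cytosol, averaged 27.7 ± 3.99 and 38.9 ± 8.95 FPKM in Muc2-/- and 21.1 ± 5.75 and 30.2 ± 10.99 FPKM in wild-type. Fabp2, an intestinal fatty acid binding protein, had 52.6, 756 and 205 FPKM in Muc2-/- 1, 2 and 3, against 103, 591 and 48.5 FPKM in wild-type 1, 2 and 3. The library numbered 2 was the highest for Fabp2 in each group, which was not so for Oxct1.

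The PPAR receptors overlapped between the groups. Ppard, the form found widely across tissues, had 27.1, 17.9 and 28.6 FPKM in Muc2-/- 1, 2 and 3, against 14.1, 22.6 and 28.1 FPKM in wild-type 1, 2 and 3 (log2 fold change 0.17, SE 0.30). Pparg, which is high in fat cells and colonocytes, had 16.7, 31.3 and 26.7 FPKM in Muc2-/-, against 13.99, 23.6 and 15.8 FPKM in wild-type (0.46, SE 0.29). Ppara, the receptor best known from liver, was under 1 FPKM in every library, with 49, 17 and 34 counts in Muc2-/- and 22, 59 and 58 counts in wild-type (-0.20, SE 0.55). Their edgeR adjusted p values were 0.784, 0.401 and 0.868. Of 16 fat cell markers 13 were tested, and their mean log2 CPM was 3.80, 2.59 and 2.18 in Muc2-/- 1, 2 and 3, against 3.69, 3.98 and 2.44 in wild-type 1, 2 and 3. The groups overlapped in it, and its part in the Pparg values was not tested. Adipoq, a defining fat cell gene, stood at 2.95, 0 and 0.0897 FPKM in Muc2-/- 1, 2 and 3, against 1.36, 2.19 and 0.316 FPKM in wild-type 1, 2 and 3.

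Among the PPAR-responsive members, Plin2, a coat protein of lipid droplets, had 52.8, 60.1 and 47.9 FPKM in Muc2-/- 1, 2 and 3, against 30.5, 32.4 and 57.2 FPKM in wild-type 1, 2 and 3 (log2 fold change 0.41, SE 0.26, edgeR adjusted p = 0.415). Wild-type 3 alone of its group stood inside the Muc2-/- range. Angptl4, a secreted inhibitor of lipoprotein lipase, was the third member whose Muc2-/- libraries were all higher, at 0.334, 0.418 and 0.437 FPKM in Muc2-/-, against 0.273, 0.188 and 0.192 FPKM in wild-type. These values rest on 20, 22 and 25 counts in Muc2-/- and 18, 13 and 14 in wild-type, and the fold change of 0.84 (SE 0.47) had an edgeR adjusted p of 0.355. Pdk4, a kinase that shuts off pyruvate dehydrogenase, had 0.539, 3.41 and 0.759 FPKM in Muc2-/-, against 2.22, 1.504 and 0.815 FPKM in wild-type (0.01, SE 0.72).

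Of 35 other PPAR-responsive and lipid storage genes 27 were tested. edgeR called 0 of them, and 3 were higher and 5 lower at an unadjusted p under 0.05, against 8.23% and 12.7% of all genes. DESeq2 called 2 of the 27 higher and 2 lower, against 3.24% and 6.61% of all genes (median -0.09). Creb3l3, a membrane-bound transcription factor of liver and intestine, had 12.1, 18.3 and 8.26 FPKM in Muc2-/- 1, 2 and 3, against 3.15, 3.49 and 2.62 FPKM in wild-type 1, 2 and 3. Every Muc2-/- library was above every wild-type library (log2 fold change 2.03, SE 0.31, edgeR adjusted p = 0.0725; DESeq2 adjusted p = 1.72e-06). Tmem37 had 99.5 ± 24.2 FPKM in Muc2-/- and 41.5 ± 10.5 FPKM in wild-type (edgeR adjusted p = 0.101, DESeq2 0.00153). Plin4, a lipid droplet protein of fat and muscle cells, and Cd36, a fatty acid transporter, stood at 1.02 ± 0.471 and 0.595 ± 0.234 FPKM in Muc2-/- and at 4.002 ± 2.34 and 1.58 ± 0.377 FPKM in wild-type. Plin4 and the smooth muscle markers ranked the libraries alike in both groups, with Plin4 at 1.36, 1.21 and 0.478 FPKM in Muc2-/- and 6.36, 3.96 and 1.68 FPKM in wild-type. The fat cell markers, which include Plin4, ranked Muc2-/- in that order too but had wild-type 2 above wild-type 1. The part of either list in the Plin4 values was not tested.

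Of the remaining lists, edgeR called 0 members in each, and their counts at an unadjusted p under 0.05 are to be read against 8.23% of all genes higher and 12.7% lower, those of DESeq2 against 3.24% and 6.61%. In the 28 nuclear co-regulators, with 27 tested, 1 was higher and 4 lower at an unadjusted p under 0.05, and DESeq2 called 1 higher and 1 lower, so the share lower was near that of all genes. Those DESeq2 called were Nr1h4, the bile acid receptor, at 29.4 ± 3.86 FPKM in Muc2-/- and 14.8 ± 3.35 FPKM in wild-type (log2 fold change 0.98, DESeq2 adjusted p = 0.00829), and Klf15, a factor of fasting metabolism and muscle, at 0.303 ± 0.0930 FPKM and 1.89 ± 0.797 FPKM (-2.67, DESeq2 adjusted p = 6.92e-05). The phosphatase Lpin1 had a log2 fold change of -1.14, with an edgeR adjusted p of 0.181. Hnf4a, a regulator of enterocyte genes, averaged 140 ± 49.2 FPKM in Muc2-/- and 153 ± 28.4 FPKM in wild-type. Of 12 other thioesterases 8 were tested, and 2 were higher and 0 lower at an unadjusted p under 0.05, against 8.23% and 12.7% of all genes. Acot9, a mitochondrial thioesterase, had 18.5, 24.0 and 21.5 FPKM in Muc2-/- 1, 2 and 3, against 11.01, 10.99 and 9.58 FPKM in wild-type 1, 2 and 3, with no overlap (0.995, SE 0.18, edgeR adjusted p = 0.0948; DESeq2 0.00156). Acot8, a peroxisomal thioesterase, had 22.7 ± 1.185 FPKM in Muc2-/- and 13.9 ± 5.76 FPKM in wild-type. Acot4 and Acot7 had log2 fold changes of 1.02 and 0.39, with edgeR adjusted p of 0.269 and 0.403.

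Of 10 other long-chain activation genes 7 were tested, with 1 higher and 2 lower at an unadjusted p under 0.05, against 8.23% and 12.7% of all genes, and 2 called lower by DESeq2, against 6.61%. Slc27a1, a fatty acid transporter with synthetase activity, had 2.53 ± 0.757 FPKM in Muc2-/- and 4.78 ± 0.513 FPKM in wild-type (DESeq2 adjusted p = 0.0410, edgeR adjusted p = 0.121). Acsl4, which prefers arachidonic acid, had 5.58 ± 1.14 FPKM in Muc2-/- and 3.397 ± 0.472 FPKM in wild-type (edgeR adjusted p = 0.147). Slc27a2, Slc27a4 and Acsl3 had log2 fold changes of -0.62, 0.07 and -0.03, with edgeR adjusted p from 0.418 to 0.957. Of 11 short- and medium-chain activation genes 5 were tested, with 0 higher and 1 lower at an unadjusted p under 0.05, against the same shares. Acsf2, a medium-chain synthetase, had 14.5 ± 1.66 FPKM in Muc2-/- and 23.0 ± 7.56 FPKM in wild-type (edgeR adjusted p = 0.190). Acss2, Acsf3, Acsm3 and Acss1 had log2 fold changes of -0.53, 0.21, -0.33 and -0.11, with edgeR adjusted p from 0.446 to 0.829. Among 14 other carnitine genes, 11 tested, 0 were higher and 3 lower at an unadjusted p under 0.05, against 8.23% and 12.7% of all genes. Slc22a5, the carnitine uptake carrier, had 10.2 ± 0.547 FPKM in Muc2-/- and 7.92 ± 1.48 FPKM in wild-type (edgeR adjusted p = 0.370). Slc25a29, a carrier of basic amino acids and carnitine esters, had 1.38, 2.07 and 1.95 FPKM in Muc2-/- 1, 2 and 3, against 3.65, 2.95 and 3.44 FPKM in wild-type 1, 2 and 3 (log2 fold change -0.92, edgeR adjusted p = 0.145). Acacb, which makes malonyl-CoA, Slc22a21 and Aldh9a1 had log2 fold changes of -0.72, 0.29 and 0.09. Of 23 other mitochondrial beta-oxidation genes 21 were tested, with a median of 0.03, and 1 was higher and 0 lower at an unadjusted p under 0.05, against the same shares. That gene was Nudt19, a coenzyme A hydrolase, at 41.6, 85.9 and 36.8 FPKM in Muc2-/- 1, 2 and 3, against 23.2, 30.1 and 39.2 FPKM in wild-type 1, 2 and 3. Nudt7, Ivd, Auh and Ech1 had log2 fold changes of 0.54, -0.29, -0.37 and 0.02, with edgeR adjusted p from 0.262 to 0.969.

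The respiratory chain and citrate cycle list, which oxidizes the products of the spiral, had more positive fold changes than the 36 members. Of its 34 genes 32 were positive with a median of 0.44, where the median of the 17 pan-epithelial markers was 0.76. In 14 of the 34 the Muc2-/- libraries were all higher, against 13.3% of all genes tested. At an unadjusted p under 0.05, 4 of the 34 were higher and 0 lower, against 8.23% and 12.7% of all genes. DESeq2 called 1 of the 34 higher and 0 lower, against 3.24% and 6.61%. Cox5a, a subunit of cytochrome c oxidase and the gene of this list that DESeq2 called, had 161, 452 and 165 FPKM in Muc2-/- 1, 2 and 3, against 71.5, 116 and 140 FPKM in wild-type 1, 2 and 3 (log2 fold change 1.22, edgeR adjusted p = 0.180; DESeq2 0.0486). Muc2-/- 2 was again the highest library. Cox7a2, Vdac2 and Ndufa9, the next by p, had log2 fold changes of 0.81, 0.72 and 0.78, and Cox4i1, the highest by mean, 0.77, with edgeR adjusted p from 0.173 to 0.311. Scaled to this list, the members' median was -0.15 and that of all genes -0.44. Scaled to the pan-epithelial list, all genes had a median of -0.80 and the members -0.51, with 26 of 36 above the median of all genes. Under this scaling edgeR called 0 members, where it called 5.63% of all genes. At an unadjusted p under 0.05, 0 members were higher and 11 lower, where 40.4% of all genes passed either way. Acadl (0.32) and Angptl4 (0.000267) were the members with a positive value there.

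**Figure D5:**
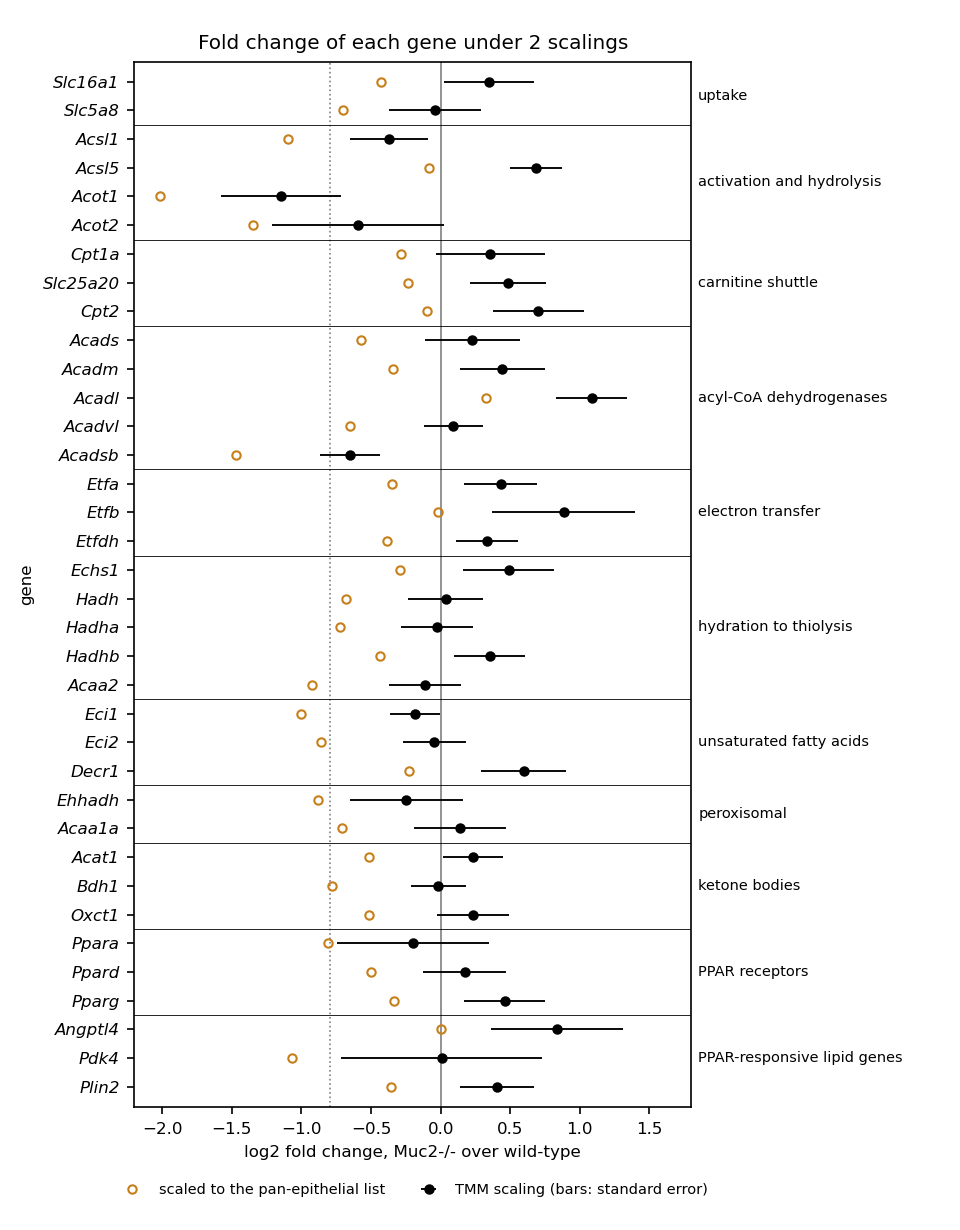
Log2 fold change of Muc2-/- over wild-type (horizontal axis) for each of the 36 genes (rows, grouped by step) with TMM scaling (filled points, bars are the standard error) and scaled to the pan-epithelial list (open points). The solid line marks 0 and the dotted line the median of all genes under the pan-epithelial scaling, -0.80. With TMM scaling 24 genes lie above 0, and with pan-epithelial scaling 2.

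By mean FPKM, Acadl, Etfa, Acads, Oxct1 and Slc16a1 were the highest members in Muc2-/-, at 155, 105, 95.02, 86.2 and 80.5 FPKM. In wild-type the highest were Acads, Etfa, Oxct1, Acadl and Acaa2, at 79.9, 76.5, 72.7, 72.3 and 70.3 FPKM. In wild-type these 5 means lay within an SD of each other. The lowest were Acot1, Angptl4 and Ppara in both groups, all under 1 FPKM.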

How the data were processed

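RNA of the descending colon was sequenced after poly-T selection, with paired-end Illumina reads. Groups and replicate numbers come from the sample titles. The authors deposited raw counts for each gene and, separately, FPKM values. The submitters' processing notes name mm10 and the tools DESeq2 1.20.0, featureCounts 1.5.0-p3, HISAT2 2.0.5 and StringTie 1.3.3b. The deposited FPKM equal counts over listed gene length and over the library total times a factor from 0.86 to 1.135, the DESeq2 size factors. Of 36 members, 2 had the start and end of GENCODE M21 and 36 its width, so the coordinates are of another assembly. Whether counting used strand is not given.

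The main test was edgeR 4.0.16 (R 4.3.3): TMM factors, the default filter (minimum count 10, total 15), a quasi-likelihood fit with genotype, and Benjamini-Hochberg adjustment at 0.05 over all genes tested. The procedure was tested on simulated counts. Each SD describes 3 libraries. DESeq2 1.42.0, limma 3.58.1, other scalings, filters, covariates and left-out libraries were alternatives. Log2 CPM used a prior count of 2. Replicates differed by a chi-square of 26.5 to 166 per degree of freedom and were kept apart.

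The members and gene lists were chosen with earlier results of these data known. All 36 members are named. Of each other list, the rule names called genes, or else up to 4 with the smallest p at 1 FPKM or more in a group, and the gene with the highest mean. Some genes that this rule names are not reported here. Sequences are RefSeq windows. Shared 50-base words were counted in GENCODE M21 transcripts, on both strands.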

Additional observations from a re-analysis of the deposited data

How the results depend on the processing

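Over 24 alternatives the members gave 858 log2 fold changes, of which 755 had the sign of the reported fit, and 6 members kept it throughout. Under each alternative 0 members were called lower. Members called higher were 1 without a filter, 2 in DESeq2 and 1 with the replicate block. Those fits called 4.47%, 9.84% and 4.18% of all genes tested. With each library left out, 0 to 1 members were called higher, where the 1 was Acadl without wild-type 3. The fit without wild-type 3 called 7.3% of all genes tested. The members' median, 0.23, was 0.0377 without composition factors, -0.51 scaled to the pan-epithelial list, -0.15 scaled to the respiratory list, -0.0699 without wild-type 1 and Muc2-/- 2, -0.15 with a smooth muscle covariate, and 0.0927 to 0.38 with each library left out. The median of all genes was -0.20 without composition factors, and -0.80 and -0.44 under the pan-epithelial and respiratory scalings. It was -0.0176 without wild-type 1 and Muc2-/- 2, and 0.0455 with the muscle covariate.

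The 20 genes called in all became 8 without composition factors, 907 and 8 under the pan-epithelial and respiratory scalings, 1199 without a filter, 1867 in DESeq2, 13 in limma-voom, 46 in limma on FPKM with a pseudocount of 1 and a minimum, 39 with a pseudocount of 0.1, 3 with a pseudocount of 1 and no minimum, 673 with the replicate block, and 0 to 1226 with each library left out. They were 1 without wild-type 1 and Muc2-/- 2, 0 with the muscle covariate (521 at an unadjusted p under 0.05), 12 without mitochondrial and immune receptor genes, 0 at an adjusted p under 0.01 and 152 under 0.1.

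Scaled to the pan-epithelial list, where the median of all genes was -0.80, values with the other sign and a reported size above their SE were Slc16a1 -0.43, Acsl5 -0.0858, Slc25a20 -0.24, Cpt2 -0.0944, Acadm -0.34, Etfa -0.35, Etfb -0.0212, Etfdh -0.39, Echs1 -0.29, Hadhb -0.43, Decr1 -0.23, Acat1 -0.51, Pparg -0.33 and Plin2 -0.35. Scaled to the respiratory list they were Slc16a1 -0.0584, Etfdh -0.0272, Hadhb -0.0638 and Acat1 -0.15. Without wild-type 1 and Muc2-/- 2 they were Slc16a1 -0.18, Acadm -0.0744, Etfb -0.13, Echs1 -0.0655 and Hadhb -0.0403. With the muscle covariate they were Slc16a1 -0.0420, Slc25a20 -0.19, Etfdh -0.18, Acat1 -0.22 and Plin2 -0.11. Smaller sign changes are counted above and not listed. The list scalings multiply all genes of a library by 1 factor, and the shift in fold change differed between genes; the cause of these changes was not tested.

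Same-numbered libraries had correlated deviations of 0.0937, 0.281 and 0.0606, not all over 0.1, so the numbers were not taken as pairs. Muc2-/- 1 and 2 correlated best with their own number and Muc2-/- 3 did not. Depth limits Acot1, Acot2, Ppara and Angptl4, whose counts were under 100 in every library.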
